A study of Mus musculus with 58 samples.

Results

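Period, cryptochrome and Ciart genes encode the repressor arm of the circadian clock, and their transcripts were followed over the day in the retinas of control and diabetic mice. The genes Per1, Per2, Per3, Cry1, Cry2 and Ciart were taken by symbol from the table of raw read counts, where they made up 6 of 52459 symbols, and all 6 passed the filter on low counts that left 18814 genes for testing. The diabetic animals were male heterozygous C57BL/6-Ins2Akita/J mice, in which a mutant insulin 2 allele leads to misfolded insulin, loss of beta cells and hyperglycemia, and the controls were their wild type male littermates. All mice were 4 months old, so the model is one of early insulin-deficient diabetes in male animals, and had been kept in a cycle of 12 h light and 12 h dark. Each animal was perfused with phosphate-buffered saline, the night samples were taken under dim red light, and total RNA of single retinas was depleted of ribosomal RNA and sequenced. Libraries came from zeitgeber times (ZT, hours after lights on) 1, 5, 9, 13, 17 and 21, with 5, 6, 5, 5, 5 and 4 control libraries and 5, 5, 5, 4, 4 and 5 diabetic libraries in that order, 58 in all. Each time point was thus sampled once, in different animals, so a repeat of the cycle was not observed.

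In the core feedback loop of the clock, the activators BMAL1 (encoded by Arntl) and CLOCK bind E-box sequences and drive transcription of the Per and Cry genes and of Ciart. The PER and CRY proteins form complexes that enter the nucleus and repress the activators, and CIART, also known as CHRONO, is a further repressor that binds BMAL1. The mammalian retina holds a clock of its own, which is set by light and controls daily functions of photoreceptors and inner neurons.

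Promoter sequences of 5 of the 6 genes, all but Per2, were matched by symbol in RefSeq (build GRCm38.p6). They made up 6 windows, each from 250 bases before an annotated start to 50 bases after it. The windows were searched on both strands for the E-box CACGTG, the E'-box CACGTT, which reads AACGTG on the other strand, the D-box TTATGNAA and the half-site TGACGT of the cAMP response element (CRE), and no matches overlapped. Ciart held 3 E-boxes, and 29 of 32851 RefSeq promoters of the same length (0.0883%) held that many, while 7.15% held at least 1. Per3 held 2 D-boxes, where 0.161% of all promoters held 2 or more and 3.38% held at least 1. Cry1 held an E-box and an E'-box within the last 100 bases before its start, and Per1 held an E-box and a D-box in its first window and a CRE half-site in its second. Cry2 held a single E'-box, a motif present in 4.68% of all promoters, and the CRE half-site was present in 7.51%. As the motifs were chosen with these promoters in view, the shares are descriptions, and a link to the daily range was not tested. The 250 bases before the start are given for Ciart, Cry1, Per3 and the first window of Per1, the windows with more than 1 match, 5′ to 3′ on the strand of the gene and with the matches in capitals. They lie at chr3:95882229-95882478 (minus strand), chr10:85185055-85185304 (minus), chr4:151044666-151044915 (minus) and chr11:69098699-69098948 (plus).
Ciart: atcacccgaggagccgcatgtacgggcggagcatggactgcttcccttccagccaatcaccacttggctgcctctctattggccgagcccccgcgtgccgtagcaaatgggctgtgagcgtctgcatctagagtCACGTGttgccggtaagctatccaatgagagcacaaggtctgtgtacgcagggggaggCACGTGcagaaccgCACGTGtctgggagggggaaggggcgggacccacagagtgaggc
Cry1: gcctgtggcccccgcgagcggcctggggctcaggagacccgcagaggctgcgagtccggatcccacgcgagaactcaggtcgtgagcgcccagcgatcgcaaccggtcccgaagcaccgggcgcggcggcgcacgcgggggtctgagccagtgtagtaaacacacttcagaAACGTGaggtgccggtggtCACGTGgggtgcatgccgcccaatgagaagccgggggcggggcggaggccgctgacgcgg
Per3: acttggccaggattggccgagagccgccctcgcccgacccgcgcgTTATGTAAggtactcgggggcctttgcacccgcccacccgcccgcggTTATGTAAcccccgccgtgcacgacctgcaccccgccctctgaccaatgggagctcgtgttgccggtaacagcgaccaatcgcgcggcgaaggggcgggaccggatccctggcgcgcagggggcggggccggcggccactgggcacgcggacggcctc
Per1: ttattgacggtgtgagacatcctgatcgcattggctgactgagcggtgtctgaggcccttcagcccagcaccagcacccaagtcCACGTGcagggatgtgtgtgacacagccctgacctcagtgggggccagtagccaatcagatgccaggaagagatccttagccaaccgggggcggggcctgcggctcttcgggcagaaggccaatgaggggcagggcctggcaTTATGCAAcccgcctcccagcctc

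Counted from the annotated start, with the base before it as -1, the E-boxes of Ciart began at -116, -58 and -44. That of Cry1 began at -60 and its E'-box at -79. In Per1 the E-box began at -166 and the D-box at -24, and in Per3 the D-boxes began at -205 and -158. These are matches of letters, and no binding was measured.

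**Figure D1:**
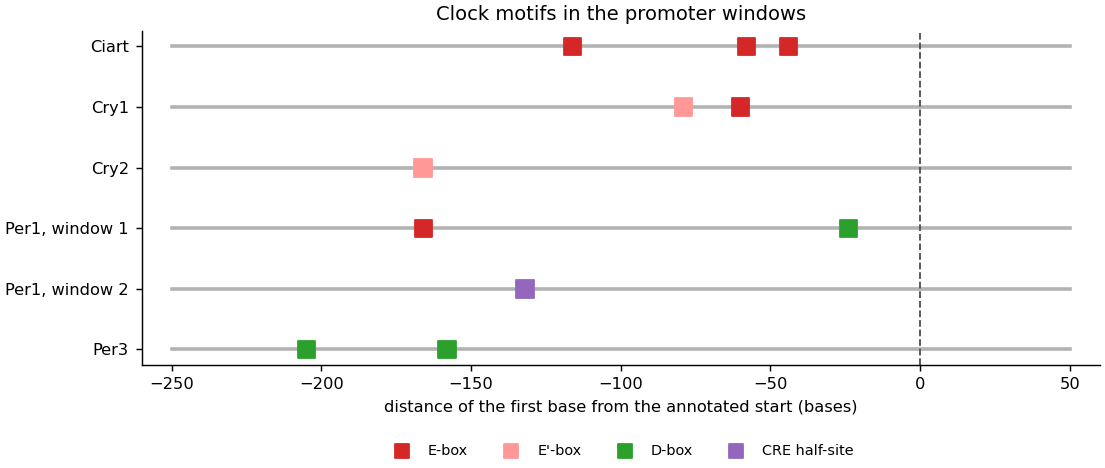
Positions of motif matches in 6 promoter windows of 5 genes, where each grey line is a window, the x axis gives the distance in bases of the first base of a match from the annotated start (dashed line), and colours mark the motif. Ciart is the window with 3 E-boxes, at -116, -58 and -44.

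Library depth ranged from 7773117 to 22147398 reads counted on genes. The tissue label was checked against its markers. All 6 photoreceptor markers were read, and their summed level was between 478021 and 742988 normalized counts (counts divided by DESeq2 size factors) in all libraries, with a median of 593914 in control and 563916 in diabetic retinas. Summed markers of the retinal pigment epithelium, a layer that can adhere to a dissected retina, had a median of 2193 in control and 1499 in diabetic libraries, with ranges of 418 to 4355 and 359.8 to 4710.0. Transcripts of lens markers stood apart in 3 control libraries, replicate 2 at ZT21, replicate 5 at ZT17 and replicate 6 at ZT1, with summed levels of 28917, 25348 and 38415, where no other library exceeded 806. Each result that changed without these 3 libraries is given both ways. As these are bulk samples, fewer cells of a type and less RNA per cell cannot be told apart, and p-values measure the spread between these single-retina libraries.

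Every library held reads of each of the 6 genes. Ciart had the lowest, with 67 to 300 reads per library, and Per3 among the highest, with 1342 to 3682. Per kilobase of annotated exon, so that genes can be compared, the mean level over all libraries was 376 normalized counts for Per1, 339 for Cry2, 260.0 for Per3, 257 for Cry1, 120.0 for Per2 and 73.0 for Ciart. Per1 and Cry2 were thus the most abundant of these repressor transcripts in the retina and Ciart the least, and this held in both genotypes. Per3 and Cry1 differed by less than the SD of either over the libraries of a genotype, while Per1 and Cry2 differed by less than the SD of Per1 but by more than that of Cry2. In GRCm38 the genes lie at chr11:69095217-69109960 (Per1, plus strand), chr1:91415982-91459324 (Per2, minus), chr4:151003652-151044665 (Per3, minus), chr10:85131700-85185064 (Cry1, minus), chr2:92403646-92434043 (Cry2, minus) and chr3:95878503-95882251 (Ciart, minus), as given by Gencode M21. Per3 lies inside Camta1 on the same strand, with no shared exon, and Camta1 was read at a mean of 4177 normalized counts (3800.3 to 4631). Reads of Camta1 introns in total RNA can fall on Per3, whose level is therefore uncertain. D930015M05Rik, whose exons overlap those of Cry2 on the opposite strand, had a mean of 2.23 normalized counts. C920021L13Rik, whose locus but not its exons overlaps Ciart on the opposite strand, had a mean of 55.0, where that of Ciart was 164.9.

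Over the day, Ciart had the widest range, Per1 and Per2 an intermediate one, and Per3, Cry1 and Cry2 a narrow one. In control retinas the highest mean of a time point was 2.44 times the lowest for Ciart, 1.56 times for Per1, 1.35 times for Per2, 1.24 times for Cry1, 1.17 times for Per3 and 1.09 times for Cry2. The same ratio in diabetic retinas was 2.42 for Ciart, 1.51 for Per2, 1.38 for Per1, 1.21 for Per3, 1.19 for Cry1 and 1.11 for Cry2. These ratios are descriptions, since the time points were picked by their means.

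**Figure D2:**
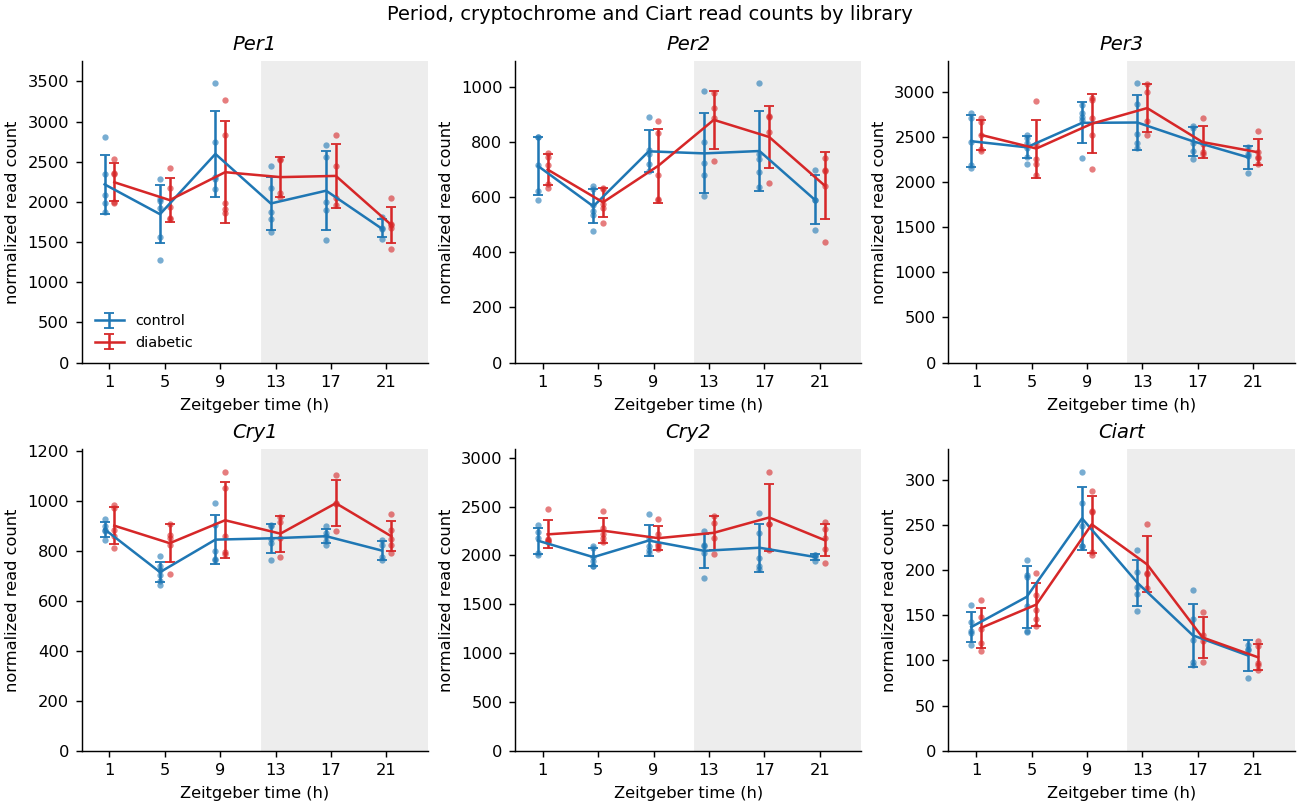
Normalized read counts of the 6 genes against zeitgeber time in control (blue) and diabetic (red) retinas, with 1 point per library, lines through the means, bars of 1 SD, y axes that start at 0 and grey shading for the dark phase. Ciart peaked at ZT9 in both genotypes, with means of 257 and 251, and Cry1 and Cry2 had a higher diabetic mean at all 6 time points.

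Ciart was highest late in the light phase. At ZT9 the 5 control libraries held 227, 227, 249, 274 and 309 normalized counts, and the 5 diabetic libraries 216, 219.6, 264, 265 and 288. Near the end of the night, at ZT21, the 4 control libraries held 80.6, 111, 112 and 117, and the 5 diabetic ones 89.1, 94.4, 96.8, 116 and 122. Every library at ZT9 was above every library at ZT21 in both genotypes. Ranges apart at these times, in either direction, were found for 5.87% of expressed genes (those with a median above 4 normalized counts) in the control group and for 5.24% in the diabetic group, which is a description, since ZT9 and ZT21 had the highest and the lowest mean of Ciart. In the hours between, control libraries held 155 to 222 at ZT13, 95.2 to 177 at ZT17, 117 to 162 at ZT1 and 131 to 211 at ZT5 (median 176, n = 6). Diabetic libraries held 181 to 251 at ZT13, 98.1 to 154 at ZT17, 111 to 167 at ZT1 and 138 to 197 at ZT5. In both genotypes the order of the means was ZT9, ZT13, ZT5, ZT1, ZT17 and ZT21. Neighbours in this order that differed by more than the larger SD were ZT9 and ZT13 in control retinas, and ZT9 and ZT13, ZT13 and ZT5, and ZT5 and ZT1 in diabetic retinas.

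The rhythm was tested with a rank test over 30 waveforms of 24 h (empirical JTK_CYCLE), in which a gene is rhythmic if its unadjusted p-value is under 0.05 and its highest library exceeds its lowest by more than 1.25 times. By this rule 2 of the 6 genes, Ciart and Per2, were rhythmic in control retinas, where 21.8% of the 19120 expressed genes were. The same 2 of 6 were rhythmic in diabetic retinas, where 23.9% of all expressed genes were. All 6 genes passed the fold threshold in both genotypes, even Cry2 (1.37 in control and 1.48 in diabetic retinas), so p-values alone decided their calls. The study set its threshold on the fold predicted by empirical JTK_CYCLE instead. For Ciart the p-value was 2e-06 in control and 1e-06 in diabetic retinas, the latter being the smallest that the shuffled series can give, and 0.000472 and 0.000255 after Benjamini-Hochberg adjustment. After that adjustment 1 of 6 remained in control retinas (Ciart, with 0.183 for Per2), where 8.23% of expressed genes did, and 2 of 6 in diabetic retinas (0.0209 for Per2), where 10.3% did. The control call of Per2 was lost in 10 of 30 fits without 1 library and also without the 3 libraries with lens transcripts (unadjusted p = 0.0676). For Per3, Cry1 and Cry2 the unadjusted p-values were 0.0955, 0.104 and 0.69 in control retinas and 0.157, 0.554 and 0.967 in diabetic ones, and for Per1 they were 0.292 and 0.0543, the latter falling under 0.05 in 8 of 28 fits without 1 library.

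A test that assumes no waveform compared all 6 time points with edgeR. In control retinas 4 of the 6 genes changed over the day (edgeR's quasi-likelihood test with Benjamini-Hochberg adjustment), against 9.25% of all genes tested, with adjusted p-values of 8.42e-08 for Ciart, 0.0215 for Per2, 0.0325 for Cry1 and 0.042 for Per1. Diabetic retinas had 2 of 6 past the threshold, against 10.2% of all genes tested, with edgeR adjusted p-values of 1.99e-08 for Ciart and 0.0117 for Per2. Without the libraries with lens transcripts, Cry1 and Per1 no longer passed in control retinas (adjusted p = 0.0559 and 0.0954), and leaving out single libraries ended the control calls of Cry1 in 6 and of Per1 in 9 fits, with adjusted p-values up to 0.107 and 0.14. Per3 and Cry2 passed in neither genotype, with adjusted p-values of 0.278 and 0.645 in control and 0.143 and 0.741 in diabetic retinas.

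Times 12 h apart give a fold with its error between fixed times, which depends on where a gene peaks and was therefore given for all 3 pairs of times. Ciart was lower at ZT21 than at ZT9, by a log2 fold change of -1.28 ± 0.16 (SE) in control and -1.27 ± 0.15 in diabetic retinas, with edgeR adjusted p-values of 3.16e-07 and 4.16e-08, where 2.41% and 5.24% of all genes passed. That corresponds to a level that fell by 58.7% in control and fell by 58.5% in diabetic retinas. At ZT17 against ZT5 its log2 fold change was -0.41 ± 0.14 in control (edgeR, adjusted p = 0.0404) and -0.38 ± 0.16 in diabetic retinas (adjusted p = 0.133). The control call was lost without the lens-carrying libraries (log2 fold change -0.397, adjusted p = 0.0699) and in 7 fits without 1 library. Ciart was higher at ZT13 than at ZT1 in diabetic retinas, by 0.59 ± 0.16 (adjusted p = 0.0362, up to 0.164 without a single library), where 1.4% of all genes passed, while the control value was 0.45 ± 0.15 (adjusted p = 0.168, 0.914% of genes passing). C920021L13Rik, the gene that overlaps the locus of Ciart, also passed at ZT17 against ZT5 in control retinas, with a log2 fold change of -0.68 ± 0.20 (edgeR, adjusted p = 0.0176). In diabetic retinas that contrast was 0.23 ± 0.22 (adjusted p = 0.59), opposite in sign to that of Ciart. At ZT13 against ZT1 C920021L13Rik had 0.37 ± 0.21 in control (adjusted p = 0.66) and 0.59 ± 0.23 in diabetic retinas (adjusted p = 0.234). At ZT21 against ZT9 its values were 0.25 ± 0.23 and 0.18 ± 0.21 (adjusted p = 0.705 and 0.723), opposite in sign to those of Ciart, and its part in the counts of Ciart was not tested. The control library with 80.6 at ZT21 lay far below the other 3, which held 111 to 117, and without it every call of Ciart between ZT21 and ZT9 held.

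Among the period genes, whose proteins carry the repressor complex and are turned over after phosphorylation, Per2 was the one that passed over the 6 time points in both genotypes, although its control call was lost without replicate 1 at ZT5 (edgeR, adjusted p = 0.0574). At ZT5 Per2 had its lowest mean in both genotypes. The control libraries there held 476 to 639.9 normalized counts (median 560.4, n = 6) and the 5 diabetic libraries 507, 559.6, 573, 630.1 and 634. In both genotypes the means at ZT5 and ZT21 differed by less than the larger SD, and the lowest diabetic library (436) was at ZT21. At ZT17 the control libraries held 638, 693, 738, 754 and 1012, and the 4 diabetic ones 651, 836, 889 and 894. The diabetic ranges at ZT5 and ZT17 did not overlap, as for 6.96% of all expressed genes (a description, since ZT5 was the lowest mean of Per2), and the control ranges overlapped by 1 library on each side. The log2 fold change of Per2 from ZT5 to ZT17 was 0.44 ± 0.12 in control (adjusted p = 0.0134, edgeR) and 0.49 ± 0.14 in diabetic retinas (adjusted p = 0.0165), in contrasts where 15.6% and 7.6% of all genes passed. These calls were lost without replicate 1 at ZT17 in control retinas (adjusted p = 0.108), and without replicate 2 at ZT5 or replicate 3 at ZT17 in diabetic retinas (adjusted p = 0.0534 and 0.0712). At ZT13, 1 h after lights off, the diabetic libraries held 732, 886, 924 and 978 and the control libraries 604, 681, 724, 799 and 984, which overlapped. For ZT21 against ZT9 the log2 fold change of Per2 was -0.38 ± 0.14 in control (adjusted p = 0.156) and -0.15 ± 0.13 in diabetic retinas (adjusted p = 0.59).

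Per1, an immediate target of light and cAMP signalling in other clock tissues, had its lowest mean at ZT21 in both genotypes. The means at ZT5 and ZT21 differed by less than the larger SD in control retinas and by more in diabetic ones. The lowest control library (1279) was at ZT5. The 4 control libraries at ZT21 held 1535, 1659, 1678 and 1808 normalized counts, and the 5 at ZT9 held 2161, 2289, 2312, 2748 and 3474. In diabetic retinas the libraries held 1416, 1671, 1710.4, 1722 and 2053 at ZT21 and 1856, 1910.4, 1991, 2827 and 3265 at ZT9. The control ranges were apart and the diabetic ranges overlapped. As for Ciart, ZT9 and ZT21 had the highest and the lowest control mean of Per1, so nothing is read from the share of expressed genes with ranges apart at these times. The log2 fold change from ZT9 to ZT21 was -0.64 ± 0.16 in control (edgeR, adjusted p = 0.0198) and -0.47 ± 0.15 in diabetic retinas (adjusted p = 0.0601). The control call did not hold without the libraries with lens transcripts (log2 fold change -0.598, adjusted p = 0.0735). It was also lost without any of replicates 2 and 3 at ZT21 and replicate 4 at ZT9 (adjusted p = 0.0684 to 0.0851). The diabetic contrast passed in 10 of 58 fits without 1 library, with the replicate number as a block (adjusted p = 0.0151) and in DESeq2 (0.0373). The SD of Per1 at ZT9 was 538 over the control and 638 over the diabetic libraries, wider than at any other time point of the same genotype.

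Per3, the period gene whose loss is known to leave the central clock largely running, varied little. Its means lay between 2274 at ZT21 and 2660 at ZT13 in control retinas, and between 2330 and 2820 at the same times in diabetic retinas. None of its 6 contrasts over 12 h passed, and the largest was ZT21 against ZT9 in control retinas, at -0.22 ± 0.09 (edgeR, adjusted p = 0.193). In control retinas at ZT9, 1 library held 2265 and the other 4 held 2682 to 2848.

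Of the cryptochromes, which bind the activators directly within the repressor complex, Cry1 had its lowest mean at ZT5 in both genotypes. In diabetic retinas that mean differed from the mean at ZT21 by less than the larger SD. The control libraries at ZT5 held 664, 682, 706, 723, 739.8 and 779 normalized counts (median 714), below all control libraries at ZT1 (845, 879, 882, 901 and 928) and at ZT17 (826, 839.6, 861, 871 and 899.7). Of all expressed genes 2.35% had control ranges apart between ZT5 and ZT1 and 7.69% between ZT5 and ZT17. ZT1 and ZT5 had the highest and the lowest control mean of Cry1 and were picked for that, so nothing is read from these shares. The diabetic libraries at ZT5 held 709.6, 822, 851, 864 and 909.9, and the 4 at ZT17 held 879, 989.7, 992 and 1106, so that these ranges overlapped. From ZT5 to ZT17 Cry1 rose by a log2 fold change of 0.27 ± 0.08 in control (edgeR, adjusted p = 0.0132) and 0.25 ± 0.08 in diabetic retinas (adjusted p = 0.0482). The diabetic call was lost in 27 of 58 fits without 1 library, with an adjusted p of 0.247 when replicate 3 at ZT17 was left out and 0.0559 without the control libraries with lens transcripts, which share the estimate of the spread. It was also lost with the replicate number as a block (0.0632) and without the filter on low counts (0.0861). Cry2 stayed within 1772 to 2433 in all control libraries and within 1926 to 2858 in all diabetic libraries. Its 12 h contrasts ranged from -0.12 ± 0.08 to 0.08 ± 0.08 and none passed, so a daily change of Cry2 was not detectable here.

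In all, 5 of 18 contrasts over 12 h passed in control retinas and 4 of 18 in diabetic retinas, and without the lens-carrying libraries 3 and 3 did. The shares of all genes that passed at ZT13 against ZT1, ZT17 against ZT5 and ZT21 against ZT9 were 0.914%, 15.6% and 2.41% for control libraries and 1.4%, 7.6% and 5.24% for diabetic ones. The contrast of ZT17 with ZT5, which held 3 of the 5 control and 2 of the 4 diabetic calls, thus had the largest share of all genes in each genotype. Per2 and Cry1 were higher at ZT17 than at ZT5, while Ciart had the opposite sign there.

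**Figure D3:**
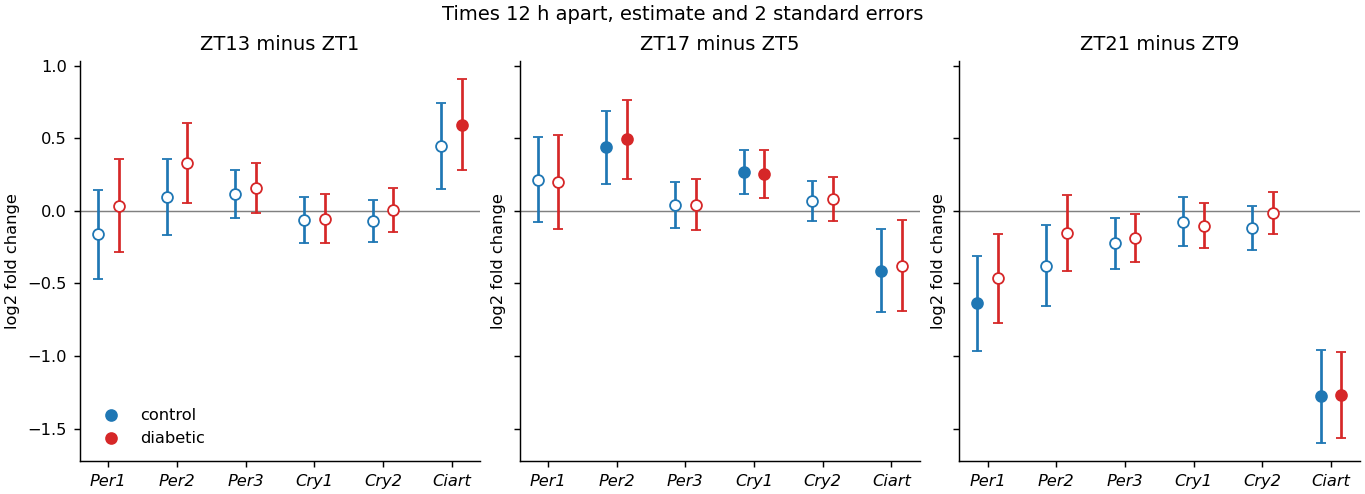
Log2 fold changes between times 12 h apart for the 6 genes (x axis), with bars of 2 SE, in control (blue) and diabetic (red) retinas, where filled symbols passed an adjusted p of 0.05. Ciart at ZT21 against ZT9 is the lowest pair, at -1.28 and -1.27, and Per2 and Cry1 are filled in both genotypes at ZT17 against ZT5.

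A cosine of 24 h fitted to each gene gave an acrophase (the time of the fitted peak) and a relative amplitude (the height of the peak above the mean, in percent of the mean). Ciart had an acrophase of ZT 9.18 ± 0.48 (SE) in control and 9.61 ± 0.45 in diabetic retinas, with relative amplitudes of 40.4% ± 5.6 and 40.9% ± 4.8. The other fitted peaks were those of Per3, at ZT 11.03 ± 1.26 and 11.51 ± 1.57, of Per2, at 13.8 ± 1.5 and 14.6 ± 0.94, and of Cry1, at 17.0 ± 1.9 and 15.7 ± 2.7. The errors of Per1, at ZT 9.63 ± 2.2 and 10.8 ± 2.0, overlap those of Ciart and Per3. For Cry2, with a relative amplitude of 0.759% ± 2.1 and 1.77% ± 2.3, the acrophase was not determined. The relative amplitudes in control and diabetic retinas were 11.5% ± 4.5 and 16.4% ± 4.2 for Per2, 9.64% ± 6.0 and 9.70% ± 4.9 for Per1, 6.72% ± 2.3 and 6.75% ± 2.7 for Per3, and 4.95% ± 2.3 and 4.17% ± 3.0 for Cry1, and those of Per1 in both genotypes and of Cry1 in diabetic retinas lay within 2 SE of 0. In edgeR's cosine fit Ciart passed in both genotypes (adjusted p = 1.36e-06 and 5.33e-08) and Per2 in diabetic retinas (0.0165, with 0.14 in control), where 11.7% and 13.1% of all genes tested passed in control and diabetic retinas. For Per1, Per3 and Cry1 the adjusted p-values of that fit were 0.413, 0.0991 and 0.329 in control and 0.256, 0.172 and 0.557 in diabetic retinas, so their fitted peaks are values without a rhythm called and no order of the peaks is read from them. For Ciart the acrophase was 0.427 h later in diabetic retinas, with an interval of 2 SE from -0.886 to 1.74 h, and for Per2 the interval ran from -2.78 to 4.4 h. The relative amplitude differed by 0.5 percentage points for Ciart (interval -14.3 to 15.3) and by 4.92 for Per2 (interval -7.34 to 17.2). Intervals of this width leave shifts of more than 1 h possible for every one of the 6 genes.

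**Figure D4:**
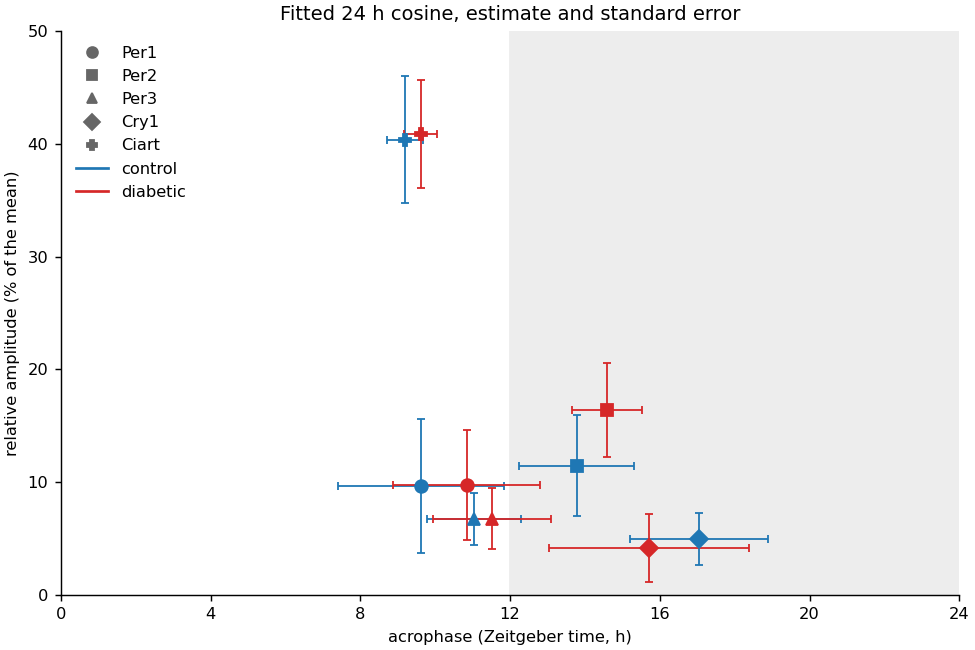
Relative amplitude in percent of the mean (y axis) against acrophase in hours of zeitgeber time (x axis) from a fitted 24 h cosine, with bars of 1 SE, for 5 genes in control (blue) and diabetic (red) retinas; Cry2 is left out because its acrophase was not determined. Ciart stands alone near 40% in both genotypes, and the other genes lie at or below 16.4%.

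Whether the time course differed between genotypes was tested with the genotype-by-cosine terms in edgeR. In 0 of the 6 genes did it pass, with a smallest unadjusted p of 0.667 (Per2), and 0 of the 6 genes had an unadjusted p under 0.05. Across all 18814 genes tested 0% passed, with 654 at an unadjusted p under 0.05, and DESeq2 called 0 of the 6 genes as well. A 24 h cosine cancels a difference of the same size at times 12 h apart, so genotype-by-time-point terms were tested as well. That edgeR test, which assumes no waveform, also called 0 of the 6 genes. Its unadjusted p-values were 0.382 for Cry1, 0.403 for Cry2, 0.64 for Per2, 0.689 for Per1, 0.947 for Ciart and 0.969 for Per3. A call in one genotype only, as for Cry1 and Per1 over the 6 time points, was therefore not shown to be a difference between them.

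The overall level differed between genotypes for both cryptochromes. Averaged over the 6 time points, Cry1 was 8.52% higher in diabetic retinas (log2 fold change 0.118 ± 0.033 SE, interval of 2 SE from 3.67% to 13.6%) and Cry2 was 8.35% higher (0.116 ± 0.03, interval 3.93% to 13.0%). The adjusted p-values from edgeR's quasi-likelihood test with Benjamini-Hochberg adjustment were 0.0266 and 0.0148, so 2 of the 6 genes passed, both higher, where 4.71% of all genes tested passed and 2.48% passed as higher. The diabetic mean was above the control mean at 6 of 6 time points for both genes, and 21 of 28 diabetic libraries were above the control median of their time point for each. These counts are a description from the values already tested. They were 5 of 6 and 18 of 28 for Per1, and 4 of 6 and 18 of 28 for Per2. Per3 had 3 of 6 and 13 of 28, and Ciart 1 of 6 and 14 of 28. The call of Cry2 held in every alternative tried, with adjusted p-values from 0.00366 to 0.0344. That of Cry1 held in each fit without a single library (0.0106 to 0.0418), but not without the 3 libraries with lens transcripts together (log2 fold change 0.112, adjusted p = 0.0588) or without the filter on low counts (0.116, adjusted p = 0.0545). The summed markers of the pigment epithelium given above, which were all 7 read and ranged widely in both genotypes, had a lower median in diabetic libraries, and their part in the difference was not tested.

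For both cryptochromes the log2 fold changes between genotypes at single time points were largest at ZT5 and ZT17. These times were picked for their size. A difference that varies over the time points was not shown (edgeR's genotype-by-time-point terms, unadjusted p = 0.382 for Cry1 and 0.403 for Cry2). For Cry2 at ZT5 the 6 control libraries held 1889.8 to 2099 normalized counts (median 1964) and the 5 diabetic libraries 2134, 2179, 2215, 2279 and 2456, which did not overlap. This was the 1 of 36 comparisons of a gene at a time point with ranges apart, and it was picked for its difference, so the 1.1% of expressed genes with ranges apart at ZT5 is given as a description only. At ZT17 the control libraries held 1865, 1896, 1969, 2228 and 2433 and the diabetic ones 2053, 2318, 2321 and 2858, which overlapped. For Cry1, the values given above overlapped at both times, with 4 of 5 diabetic libraries at ZT5 and 3 of 4 at ZT17 above the highest control library. The log2 fold changes of Cry1 were 0.22 ± 0.08 at ZT5 and 0.21 ± 0.08 at ZT17, and those of Cry2 were 0.19 ± 0.07 and 0.2 ± 0.08. None of these passed at a single time point, with edgeR adjusted p-values of 0.507 and 0.39 for Cry1 and 0.59 and 0.339 for Cry2. Of 36 tests of a gene at a time point 0 passed in edgeR and 0 in DESeq2, where edgeR called 0.0106%, 0.0213%, 0.00532%, 0%, 0.175% and 0% of all genes from ZT1 to ZT21, and 4 had an unadjusted p under 0.05, which were Cry1 and Cry2 at ZT5 and ZT17. Of all genes 5.49%, 6.1%, 4.44%, 4.48%, 8.94% and 4.67% had an unadjusted p under 0.05 at these times in the same order. The difference of the Cry2 means exceeded the larger SD at ZT5, ZT13 and ZT21 but not at ZT17, and that of Cry1 did so at ZT5 and ZT17. Per1 and Per2 had log2 fold changes of similar size at ZT13, 0.22 ± 0.16 and 0.21 ± 0.14, with wider errors (edgeR, unadjusted p = 0.178 and 0.131). At ZT1, 1 diabetic library held 2472 for Cry2 and the other 4 held 2135 to 2166.

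The period genes and Ciart did not pass between genotypes. Their log2 fold changes over all time points were 0.067 ± 0.064 for Per1, 0.058 ± 0.054 for Per2, 0.025 ± 0.034 for Per3 and -0.0018 ± 0.062 for Ciart, with edgeR adjusted p-values of 0.664, 0.658, 0.79 and 0.995. The intervals of 2 SE ran from -4.12% to 14.4% for Per1, from -3.48% to 12.3% for Per2, from -2.99% to 6.73% for Per3 and from -8.32% to 8.80% for Ciart. Those of Per1 and Per2 include a difference of the size seen for the cryptochromes, as does that of Ciart, and that of Per3 ends below it. The median log2 fold change of the 6 genes was 0.062, where that of all genes tested was 0.0028.

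**Figure D5:**
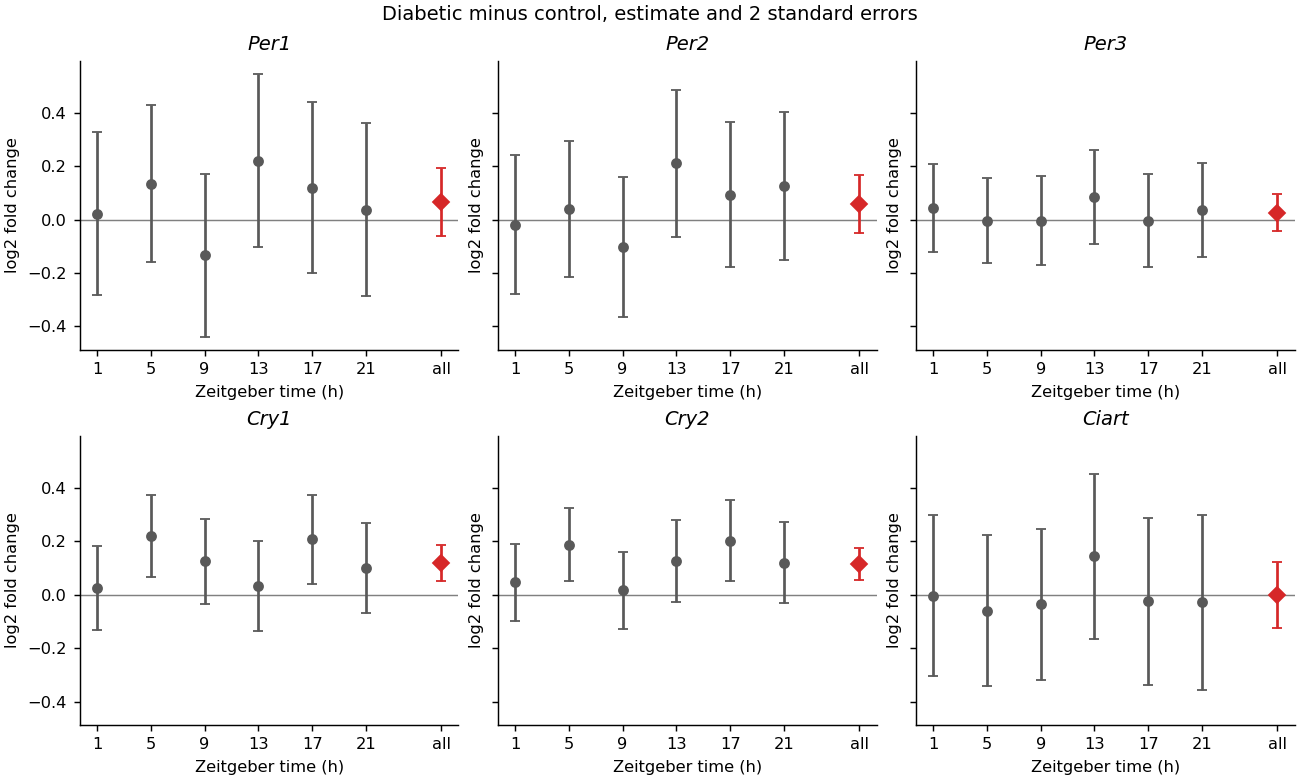
Log2 fold change of diabetic against control retinas (y axis) for the 6 genes at each zeitgeber time (grey circles) and over all time points (red diamonds), with bars of 2 SE. The red intervals of Cry1 and Cry2, at 0.118 and 0.116, lie above 0, and those of the other 4 genes include 0.

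Libraries of the same group differed along a shared axis, and the 6 genes followed it to different degrees. Of the deviations of 11237 well-read genes from their group means, the first principal component held 36.5% of the variance over the 58 libraries. The deviations of Per1 and Cry2 correlated with it at r = 0.863 and 0.832, those of Cry1, Ciart and Per2 at 0.475, 0.421 and 0.403, and those of Per3 at -0.172, as a description in which all points share libraries and scaling. With the log2 depth the deviations of the 6 genes had correlations between -0.145 and 0.106. Among pairs of the 6 genes, the deviations of Per1 and Cry2 were most alike (r = 0.706), followed by Cry1 and Cry2 (0.624) and Per1 and Per2 (0.540), and those of Per3 and Cry1 were the most opposed (-0.294). Most of the spread of Per1 and Cry2 within a group thus ran with that of many other genes, and the part of this axis in the difference between genotypes was not tested.

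The genes most alike to each member over the 58 libraries, by Pearson's r of log2(normalized count + 1) among 11236 genes with a mean of at least 100, differed from gene to gene. Ciart was closest to Arr3 (cone arrestin, r = 0.782), Dbp (an E-box output gene of the clock, 0.778) and Kif4 (a kinesin, 0.763). Per1 was closest to Zfp36l2 (0.836), Kmt2b (0.825) and Pcnx3 (0.811), and Per2 to Etnppl (0.651), Rgs9 (0.649) and Slc19a1 (0.638). For Per3 these were Dpm1 (0.766), Usp48 (0.733) and Gm36936 (0.726), for Cry1 Phf23 (0.773), Fam53c (0.765) and Mta2 (0.755), and for Cry2 Sema7a (0.834), Rcc2 (0.781) and Ranbp3 (0.778). Only for Ciart was a gene of the clock list among the first 3. These correlations are descriptions, since all points share their libraries and scaling and include both the time course and the spread within groups.

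Of 22 other genes of the clock, 5 changed over the time points in control retinas (Rorb, Dbp, Tef, Nfil3 and Usp2) and 5 in diabetic retinas (Rora, Rorb, Dbp, Tef and Usp2), by edgeR and beside the backgrounds of 9.25% and 10.2% given above. By role these were, in control and diabetic retinas, 0 and 0 of 4 activators, 1 and 2 of 4 nuclear receptors, 3 and 2 of 6 output factors, and 1 and 1 of 8 kinases, ligases and partners of PER and CRY. Arntl, whose product drives the repressors, had fitted peaks at ZT 22.9 ± 1.1 and 0.944 ± 1.6 in control and diabetic retinas, with adjusted p-values of 0.11 and 0.291 in edgeR's cosine fit. By the rank test Arntl was rhythmic in control retinas (unadjusted p = 0.0188, adjusted p = 0.126) and not in diabetic ones (unadjusted p = 0.11), and the genotype-by-cosine test of that difference gave an unadjusted p of 0.582. Dbp was rhythmic in both (unadjusted p = 0.000879 and 0.000924) and peaked at ZT 10.3 ± 0.90 and 9.60 ± 0.75, beside Ciart. The relative amplitudes of Dbp were 14.8% ± 3.7 and 16.3% ± 3.1, below that of Ciart in each genotype by more than 2 SE of either. Between genotypes 0 of the 22 passed in edgeR, where 4.71% of all genes did, with a median log2 fold change of 0.012 and a smallest unadjusted p of 0.00438 for Arntl (log2 fold change 0.088 ± 0.029, adjusted p = 0.0735). For Dbp the difference was -0.087 ± 0.048 (adjusted p = 0.348).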

How the data were processed

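Total RNA of 58 single retinas (30 control, 28 diabetic) was measured by RNA-seq. The authors deposited raw read counts per gene symbol, which they made with STAR (version 2.7.4a) on GRCm38.p5 with Gencode M15 and HTSeq-count (version 0.11.1), and which are whole numbers with no normalization or filter. Whether counting used strand is not given in the sources used here, so reads of opposite-strand neighbours cannot be told apart. Libraries were assigned by their titles, and all groups were labelled as biological replicates.

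From these counts, edgeR's quasi-likelihood test (version 4.0.16, R 4.3.3, TMM, filterByExpr with a minimum count of 10) was fitted over 12 groups on 18814 genes, with Benjamini-Hochberg adjustment over all of them and a threshold of 0.05. The genotype-by-cosine fit stood in for the rank-based package of the study, which was not used here. Genotype-by-time-point terms of the fit over 12 groups were an alternative to it. Rhythm used counts divided by DESeq2 (version 1.42.0) size factors, 19120 genes with a median above 4, and a rewritten empirical JTK_CYCLE with 6 phases and 5 widths in steps of 4 h, against 1000000 shuffled series (200000 with a library left out). Methods were tested on simulated data. Fits with a library left out kept the gene set and the trended dispersion of all libraries.

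Members and lists were chosen with earlier results of these data known. Named are the 6 members, Arntl, Dbp and any of 22 clock genes past the threshold between genotypes, the 3 genes most correlated with each member, and genes whose locus overlaps a member. The partner genes that changed over time are named with no values, and a gene of that list that is not reported here was left out of its counts. Motifs were chosen with these promoters in view. Alternatives were DESeq2, its size factors, no filter, a replicate block, each library left out and, chosen after seeing the data, the libraries with lens transcripts left out.

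Of the other marker lists, summed medians in control and diabetic libraries were 38558 and 38559 for Muller glia, 3417 and 3246 for inner neurons, 383 and 364 for endothelium and microglia, 5.56 and 6.25 for blood, and 7.58 and 11.5 for cornea and ciliary body. All 113 pairs of libraries within a group differed by more than sampling noise, the lowest ratio of chi-square to its degrees of freedom being 1.86.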

Additional observations from a re-analysis of the deposited data

Results flagged for a closer look

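In 72 groups of a gene, genotype and time point with 4 to 6 libraries, 3 had a library whose gap to its nearest neighbour exceeded Dixon's 95% limit for the range of the group, and chance gives about 1 in 20 groups. Ciart in control retinas at ZT21 had a lowest library (replicate 1) of 80.6 normalized counts, with the next at 111. Cry2 in diabetic retinas at ZT1 had a highest library (replicate 1) of 2472, with the next at 2166. Per3 in control retinas at ZT9 had a lowest library (replicate 5) of 2265, with the next at 2682.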

How the results depend on the processing

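Without the 3 libraries with lens transcripts, an alternative chosen after seeing the data, the genes called were 1 for rhythm in control retinas, 2 for change over the time points and 3 for contrasts over 12 h in control retinas, and 1 between genotypes over all time points, and Per1 at ZT21 between genotypes turned to -0.00153. The rhythm in control retinas called 1 gene with edgeR's cosine fit and 1 with Benjamini-Hochberg adjustment, and 1 gene differed between genotypes over all time points without the filter on low counts. Without that filter Cry1 over the time points in control retinas (adjusted p = 0.0561), Ciart between ZT17 and ZT5 in control retinas (0.0613) and Cry1 between ZT17 and ZT5 in diabetic retinas (0.0861) also missed the threshold. With the replicate number as a block, the counts of calls were those of the fit without it, but Cry1 between ZT17 and ZT5 in diabetic retinas was lost (adjusted p = 0.0632), Per1 between ZT21 and ZT9 in diabetic retinas was gained (0.0151), and uncalled differences of Cry2 and Per1 between ZT13 and ZT1 in diabetic retinas turned to -0.0156 and -0.0251. The numbers did not meet the rule for pairing, in which every pair must exceed 0.1, since same-numbered libraries correlated in their deviations at a mean of 0.154, against -0.0331 for differently numbered ones, but as low as -0.665, and only 59.5% of 289 pairs exceeded that value. DESeq2 added Per1 between ZT21 and ZT9 in diabetic retinas (adjusted p = 0.0373). The cause of these changes was not tested.

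Leaving out each library in turn gave 1 to 3 rhythmic genes in control retinas, 1 to 4 genes that changed over time in control retinas, 2 to 5 contrasts over 12 h in diabetic retinas, and 2 genes between genotypes over all time points in each fit. In the rank test against shuffled series, a permutation test, Per2 lost its control rhythm without replicates 1, 2, 3 or 6 at ZT5, 4 or 5 at ZT13, 2 or 4 at ZT21, 1 at ZT17 or 6 at ZT1 (p = 0.0508 to 0.0853). The change over time of Cry1 in control retinas was lost without replicates 1, 2, 5 or 6 at ZT5, 1 at ZT1 or 3 at ZT17, that of Per1 without any of the 4 at ZT21, 1 or 2 at ZT5, 4 or 5 at ZT9 or 3 at ZT13, and that of Per2 without replicate 1 at ZT5 (adjusted p = 0.0574). Ciart between ZT17 and ZT5 in control retinas depended on replicates 1, 3, 4 and 5 at ZT5 and 2, 4 and 5 at ZT17, and between ZT13 and ZT1 in diabetic retinas on replicates 1, 3 and 5 at ZT13 and 2, 3 and 4 at ZT1. Without single libraries Per1 became rhythmic in diabetic retinas in 8 fits, Per3 and Cry1 in control retinas in 2 and 3, and Per3 changed over time in diabetic retinas in 2.

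Only differences that were not called changed sign when a library was left out. Over 12 h these were, in control retinas, Per2 from ZT1 to ZT13 (-0.0204 to 0.169) and Cry2 from ZT5 to ZT17 (-0.0017 to 0.107), and in diabetic retinas Cry2 and Per1 from ZT1 to ZT13 (-0.0307 to 0.0532 and -0.0115 to 0.0872), Cry2 and Per3 from ZT5 to ZT17 (-0.0204 to 0.148 and -0.0119 to 0.123) and Cry2 from ZT9 to ZT21 (-0.0461 to 0.0257). Between genotypes they were Ciart over all time points (-0.0211 to 0.0214) and at ZT1 (-0.092 to 0.0683), ZT9 (-0.086 to 0.0372), ZT17 (-0.136 to 0.116) and ZT21 (-0.131 to 0.0296), Per3 at ZT5 (-0.0938 to 0.0394), ZT9 (-0.057 to 0.0612), ZT17 (-0.058 to 0.0208) and ZT21 (-0.000874 to 0.0599), Per1 at ZT1 (-0.0323 to 0.119) and ZT21 (-0.0369 to 0.0997), Per2 at ZT1 (-0.0811 to 0.0353) and ZT5 (-0.0125 to 0.0813), Cry1 at ZT1 (-0.00771 to 0.0612) and ZT13 (-0.00102 to 0.0838), and Cry2 at ZT9 (-0.017 to 0.0634). Each group held 4 to 6 libraries, and Ciart had the fewest reads of the 6 genes, 67 to 300 per library.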
